A study of Rattus norvegicus with 3 samples.

Results

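The genes described here build, trim and anchor the connective tissue of skeletal muscle: collagens, matrix glycoproteins and proteoglycans, the enzymes that turn them over, and genes of fibroblasts and tendon cells. They were chosen by name, 40 rat genes in all, and matched to array probes through the RefSeq accession given for each non-control probe. Of the 40 genes, 32 were matched by 39 probes, out of 15168 genes and 18005 named probes on the array (30367 probes in all). Col5a2, Col4a2, Col15a1, Col6a1, Col6a3, Col12a1, Thbs4 and Lox had no probe matched in this way and are not analysed here. Messenger RNA of male Wistar Honnover rats aged 12 weeks was measured with 1 array for each of 3 muscles. They were the soleus of untreated rats, the soleus of rats whose left sciatic nerve had been transected over about 5 mm 28 days earlier, and the plantaris of untreated rats. The soleus is a slow postural calf muscle and the plantaris its faster neighbour. The normal soleus array is titled only Post, and its source name gave its group. The sources used here do not give the number of animals behind an array, and with 1 array per group no difference has a replicate check.

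Muscle fibres lie in a scaffold that fibroblasts secrete. Fibrillar collagens carry tension, a basement membrane of other collagens and laminins wraps each fibre, and small leucine-rich proteoglycans bind to collagen fibrils and shape them. Metalloproteinases cut this matrix, tissue inhibitors of metalloproteinases (TIMPs) restrain them, and the cytokine TGF-beta is known as a main signal for matrix synthesis. At its ends a muscle passes into tendon, whose cells express genes of their own. Loss of the nerve makes fibres waste, and connective tissue is known to take up a larger share of denervated muscle.

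The stretches just before the gene starts are shown for 7 members whose probes were past 2-fold against the normal soleus in the comparisons given further on, in the direction of transcription. Each is the 250 bases before the start given in RefSeq, build GRCr8. Capitals mark matches on either strand to 4 motifs: CCAAT (the CCAAT box), TATAAA (the TATA box), GGGCGG (the GC box) and CATTCC. TEAD factors are known to bind the letters CATTCC. Where transcription starts in these muscles was not measured, so a stretch can hold transcribed bases. In Col1a2 TATAAA starts 170 bases before the RefSeq start.
Comp, chr16:19089549-19089798 (minus strand): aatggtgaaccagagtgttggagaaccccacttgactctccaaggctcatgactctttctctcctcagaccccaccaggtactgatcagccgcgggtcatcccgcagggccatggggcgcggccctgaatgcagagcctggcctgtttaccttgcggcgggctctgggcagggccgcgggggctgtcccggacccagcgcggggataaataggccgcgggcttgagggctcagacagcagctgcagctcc
Fmod, chr13:48045317-48045566 (plus strand): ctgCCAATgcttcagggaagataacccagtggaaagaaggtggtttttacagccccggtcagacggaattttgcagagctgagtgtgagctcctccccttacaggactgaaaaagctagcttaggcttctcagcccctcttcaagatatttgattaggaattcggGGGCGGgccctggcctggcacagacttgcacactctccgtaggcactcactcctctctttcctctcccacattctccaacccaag
Postn, chr2:140677811-140678060 (plus strand): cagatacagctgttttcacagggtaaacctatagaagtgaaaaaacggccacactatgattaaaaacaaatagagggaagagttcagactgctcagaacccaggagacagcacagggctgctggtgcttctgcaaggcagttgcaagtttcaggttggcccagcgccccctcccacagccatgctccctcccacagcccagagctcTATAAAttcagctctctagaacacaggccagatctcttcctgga
Tnc, chr5:82476132-82476381 (minus strand): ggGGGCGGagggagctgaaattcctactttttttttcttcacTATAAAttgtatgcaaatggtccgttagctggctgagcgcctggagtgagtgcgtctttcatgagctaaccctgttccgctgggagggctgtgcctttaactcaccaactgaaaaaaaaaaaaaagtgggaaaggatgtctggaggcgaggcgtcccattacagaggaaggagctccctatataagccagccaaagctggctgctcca
Timp2, chr10:104089215-104089464 (minus strand): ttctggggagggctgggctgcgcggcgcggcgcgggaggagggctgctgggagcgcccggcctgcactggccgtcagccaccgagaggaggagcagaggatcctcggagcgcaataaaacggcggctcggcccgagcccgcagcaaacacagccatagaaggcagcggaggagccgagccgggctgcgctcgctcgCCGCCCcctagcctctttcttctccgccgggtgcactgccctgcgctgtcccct
Col1a2, chr4:33518307-33518556 (plus strand): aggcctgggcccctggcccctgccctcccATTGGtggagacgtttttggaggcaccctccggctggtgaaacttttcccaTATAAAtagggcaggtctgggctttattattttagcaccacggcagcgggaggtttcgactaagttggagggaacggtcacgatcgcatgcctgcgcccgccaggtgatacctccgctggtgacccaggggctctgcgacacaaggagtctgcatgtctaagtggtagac
Timp1, chrX:3771123-3771372 (minus strand): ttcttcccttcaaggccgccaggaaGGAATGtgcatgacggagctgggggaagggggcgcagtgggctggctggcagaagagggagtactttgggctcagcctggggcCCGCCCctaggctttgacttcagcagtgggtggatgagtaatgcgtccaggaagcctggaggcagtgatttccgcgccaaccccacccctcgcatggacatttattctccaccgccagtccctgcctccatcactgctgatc
Comp, whose probe had the largest difference after denervation, holds none of the 4 motifs in this window. Postn holds TATAAA starting 44 bases before its start, Fmod CCAAT at 247 and GGGCGG at 85, and Timp1 CATTCC at 225 and GGGCGG at 142. The RefSeq table had entries for 26 of the 40 members. Of these 26 stretches 13 (50%) hold GGGCGG, against 30.5% of the 33469 stretches of the same length in the table. CCAAT is in 9 (34.6%, against 34.0%), TATAAA in 5 (19.2%, against 12.9%) and CATTCC in 5 (19.2%, against 12.1%). CCAAT and CATTCC could share letters, but 0 pairs of matches did so in the 26 stretches, and a match is a run of letters, not a measured binding site. Mmp2, Col1a1 and Bgn, also past 2-fold against the normal soleus, have no entry in the table, and the stretch before Col8a1 is not printed.

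Levels are given as log2 processed signal, with 0 at the 75th percentile of all spots on that array that are not controls, and 1 unit is 2-fold. They can be compared between arrays for a gene, not between genes. A value after ± is the scanner software's own error for a signal or a difference. It covers measurement only and not the spread between animals. For bright probes it was nearly constant, 0.144 for a signal and 0.204 for a difference, whatever the spread of their repeat spots. Beyond the error is therefore close to a fixed cutoff of size for such probes. Of the 30367 probes, between 64.2% and 67.0% were well above background on an array, and 30 of the 32 members were so on all 3 arrays. Mmp9, a gelatinase of inflammatory cells, was not well above background on any array, and Thbs1 was so on the denervated array only. Repeat spots of a member differed with an SD of at most 0.25 log2 units on every array for 28 of the 31 members with repeat spots, the exceptions being Thbs1, Tgfb1 and Thy1. The normal soleus and plantaris arrays share a slide and a scan, and the denervated array comes from another slide and scan, so that denervation cannot be told apart from the slide in anything below that sets it against the other arrays. The defining genes of muscle fibres were bright on each array, all 11 measured being well above background, and the slow myosin Myh7 was lower in plantaris by 2.62 on the log2 scale (-2.62 ± 0.20).

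**Figure D1:**
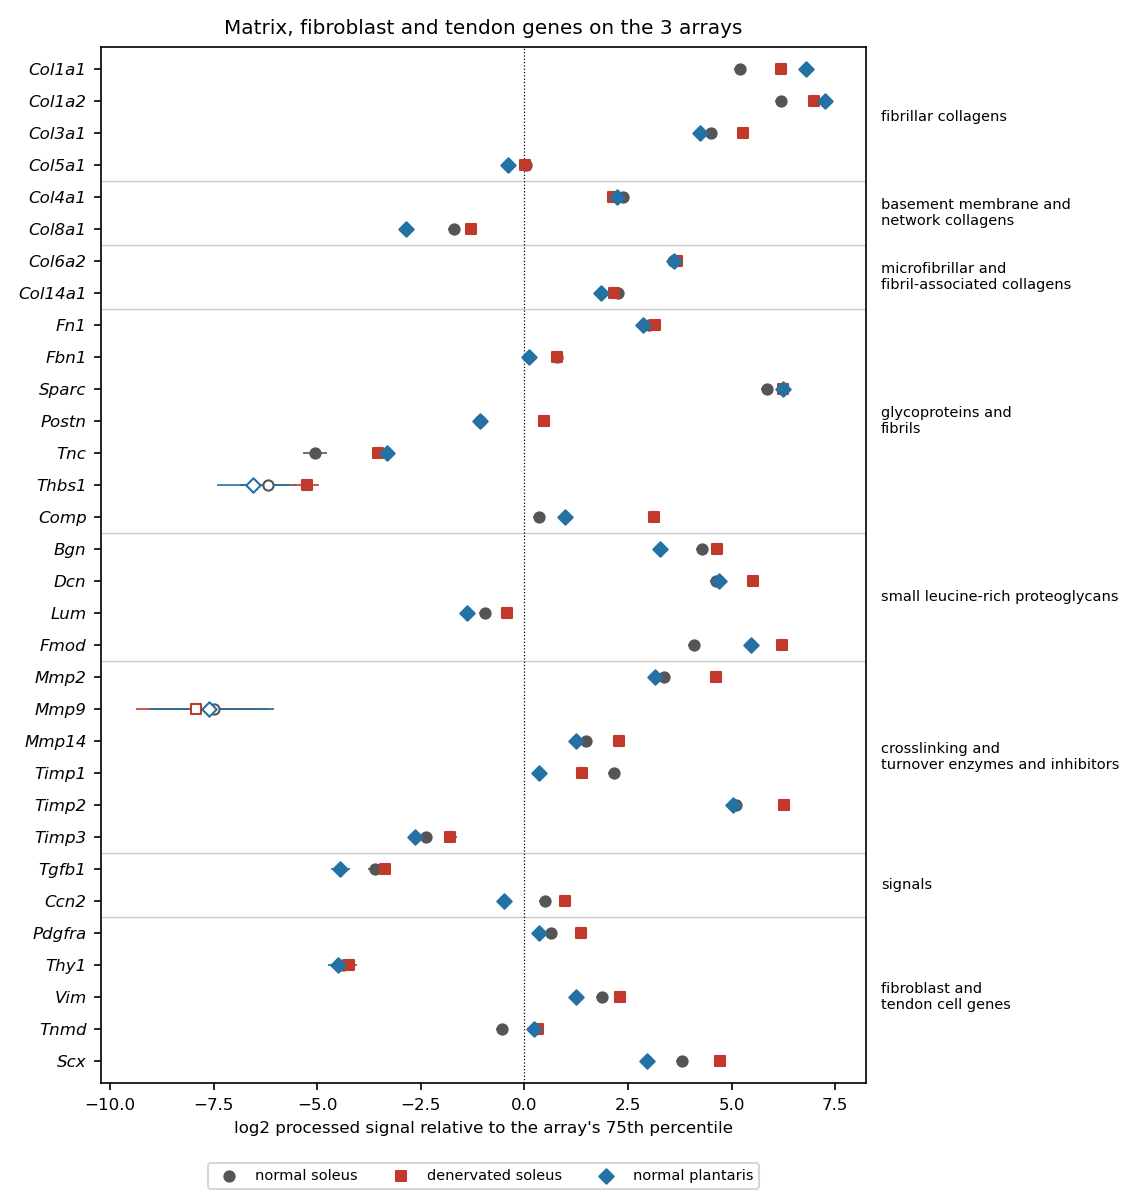
Log2 processed signal relative to the 75th percentile of each array (horizontal axis) for the 32 members with a probe, grouped by role, with 1 point per array (circles normal soleus, squares denervated soleus, diamonds normal plantaris) and bars for the scanner software's error. Open symbols, for Thbs1 and Mmp9, were not well above background; for 22 of the 30 members measured on all arrays the square lies farthest to the right.

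The first comparison set the denervated soleus against the normal soleus and addresses what 28 days without the nerve go along with in a slow muscle. Members were mostly higher after denervation. Comp was 6.83-fold higher, Fmod 4.32-fold, Postn 2.90-fold, Tnc 2.87-fold, Mmp2 2.38-fold and Timp2 2.21-fold. Of the 31 members measured, 6 (19.4%) were at least 2-fold higher, where 8.73% of all 11318 genes were, and 0 were at least 2-fold lower, where 13.4% of all genes were (22.1% either way). The median difference was 0.60 over these members and 0.03 over all genes, and 27 members lay above 0 against 51.2% of all genes. The count of 6 became 11 under quantile normalization and 14 with the authors' deposited values, which move the median of all genes to 0.27. Of all genes past 2-fold 39.4% were higher, or 58.6% with the authors' values and 26.8% with normexp background. The members' median lay 0.57 above that of all genes in the main setting and between 0.54 and 0.69 above it in the alternatives. Fewer muscle fibres or less RNA per fibre, and more fibroblasts or more RNA per fibroblast, cannot be told apart in RNA of whole muscle.

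Collagens differed by type. Col1a1 and Col1a2 encode the chains of type I collagen, the main tension-bearing fibril. Col1a1 stood at 5.20 in normal soleus, 6.19 in denervated soleus and 6.79 in plantaris. The difference after denervation was 0.99 ± 0.20, just under 2-fold, and 1.43 on a second, dimmer probe. Col1a2 stood at 6.19, 6.996 and 7.26 in the same order, a difference of 0.81 ± 0.20 after denervation. Both chains were thus lowest in the normal soleus. Col3a1, for the type III collagen that accompanies type I, was at 4.51, 5.27 and 4.23, higher after denervation by 0.76 ± 0.20. Under quantile normalization the 3 genes passed 2-fold after denervation, at 1.48, 1.49 and 1.20. Col5a1, whose type V collagen starts and limits fibril growth, stood at 0.03, 0.00 and -0.40 and was within its error of 0 after denervation (-0.03 ± 0.20).

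Collagens outside the fibrillar group differed little after denervation. Col4a1, of the basement membrane, was at 2.38, 2.14 and 2.22, a difference of -0.23 ± 0.20 after denervation. Col6a2, of the beaded microfibrils next to the fibre surface, stood at 3.59, 3.68 and 3.61, and no array differed from another by more than its error. Col14a1, of a collagen that sits on fibrils, was at 2.26, 2.15 and 1.84, a difference of -0.11 ± 0.20. Col8a1, of a network collagen, was at -1.71, -1.29 and -2.87, a difference of 0.42 ± 0.21, with the plantaris lowest. None of these 4 passed 2-fold after denervation.

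Among glycoproteins the spread was wide. Comp, the pentameric thrombospondin of cartilage and tendon that binds collagen, stood at 0.36 in normal soleus, 3.13 in denervated soleus and 0.99 in plantaris. Its difference after denervation, 2.77 ± 0.20, exceeded that of 98.5% of all genes and ranged from 2.74 to 3.02 over the alternatives. Postn encodes periostin, a matricellular protein of fibroblasts in loaded or injured tissue. It was at -1.07 and -1.08 in the normal soleus and plantaris and at 0.47 in the denervated soleus (1.54 ± 0.20). The normal muscles were level in Postn and the denervated one stood alone. Tnc encodes tenascin C, which is concentrated where muscle joins tendon. It was dim, at -5.05, -3.53 and -3.32, and its difference of 1.52 ± 0.32 fell to 0.54 with normexp background, below 2-fold.

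Thbs1, for thrombospondin 1, was 1.92-fold higher after denervation (0.94 ± 0.73). This is the difference from a normal soleus signal that was not well above background, so its size is uncertain. Sparc, for a collagen-binding protein of fibroblasts, was at 0.37 ± 0.20. Fn1 and Fbn1, which encode fibronectin and the microfibril protein fibrillin 1, were within their error of 0, at 0.13 ± 0.20 and 0.01 ± 0.20. Of the 7 glycoprotein members measured, 3 were past 2-fold.

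All 4 small leucine-rich proteoglycans were above 0 after denervation. Fmod encodes fibromodulin, which is abundant in tendon and steers collagen crosslinking, and stood at 4.10 in normal soleus, 6.21 in denervated soleus and 5.46 in plantaris. Its difference was 2.11 ± 0.20, the second largest of the members, and 2.10 to 2.60 over the alternatives. Dcn, for decorin, was at 4.62, 5.52 and 4.70 (0.89 ± 0.20), Lum, for lumican, at -0.96, -0.43 and -1.39 (0.53 ± 0.20), and Bgn, for biglycan, at 4.29, 4.64 and 3.26 (0.35 ± 0.20). Only Fmod passed 2-fold, Dcn joining it under quantile normalization (1.39) and with the authors' deposited values (1.14). A second, dimmer Bgn probe gave -0.03.

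Genes for matrix turnover moved apart. Mmp2 encodes gelatinase A, a protease of fibroblasts that cuts basement membrane and denatured collagen. It stood at 3.38, 4.63 and 3.15, higher after denervation by 1.25 ± 0.20 on 1 probe and 1.06 on another. Each of these probes had 1 spot per array, so Mmp2 has no check by repeat spots. Mmp14, for the membrane protease that activates gelatinase A, was at 1.48, 2.27 and 1.25 (0.80 ± 0.20). Timp2, for the inhibitor that takes part in this activation, was at 5.11, 6.25 and 5.04 (1.15 ± 0.20). For these 3 genes the normal soleus and plantaris lay within 0.23 of each other and the denervated soleus above both. Timp3, for an inhibitor that is bound to the matrix, was at 0.60 ± 0.21. Timp1, for an inhibitor induced in inflammation and repair, went the other way, at 2.16 in normal and 1.40 in denervated soleus (-0.76 ± 0.20), and stayed between -0.78 and -0.52 over the alternatives.

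Signals and cell genes differed by less than 2-fold. Tgfb1, for the cytokine itself, was at 0.23 ± 0.24 (-0.05 with normexp background), and its target Ccn2, for connective tissue growth factor, at 0.49 ± 0.20. Pdgfra, for a growth factor receptor that marks fibro-adipogenic progenitors, the resident fibroblast precursors of muscle, stood at 0.65, 1.36 and 0.35 (0.71 ± 0.20). Vim, for the intermediate filament vimentin, was at 0.45 ± 0.20 and the surface marker Thy1 at 0.16 ± 0.31. The tendon genes Scx, for the transcription factor scleraxis, and Tnmd, for the membrane protein tenomodulin, were at 0.93 ± 0.20 and 0.87 ± 0.20. A second Scx probe gave 0.92. All 5 cell genes were above 0 and none past 2-fold, while Scx passed it under quantile normalization (1.31) and Scx and Tnmd with the authors' deposited values (1.17 and 1.11).

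**Figure D2:**
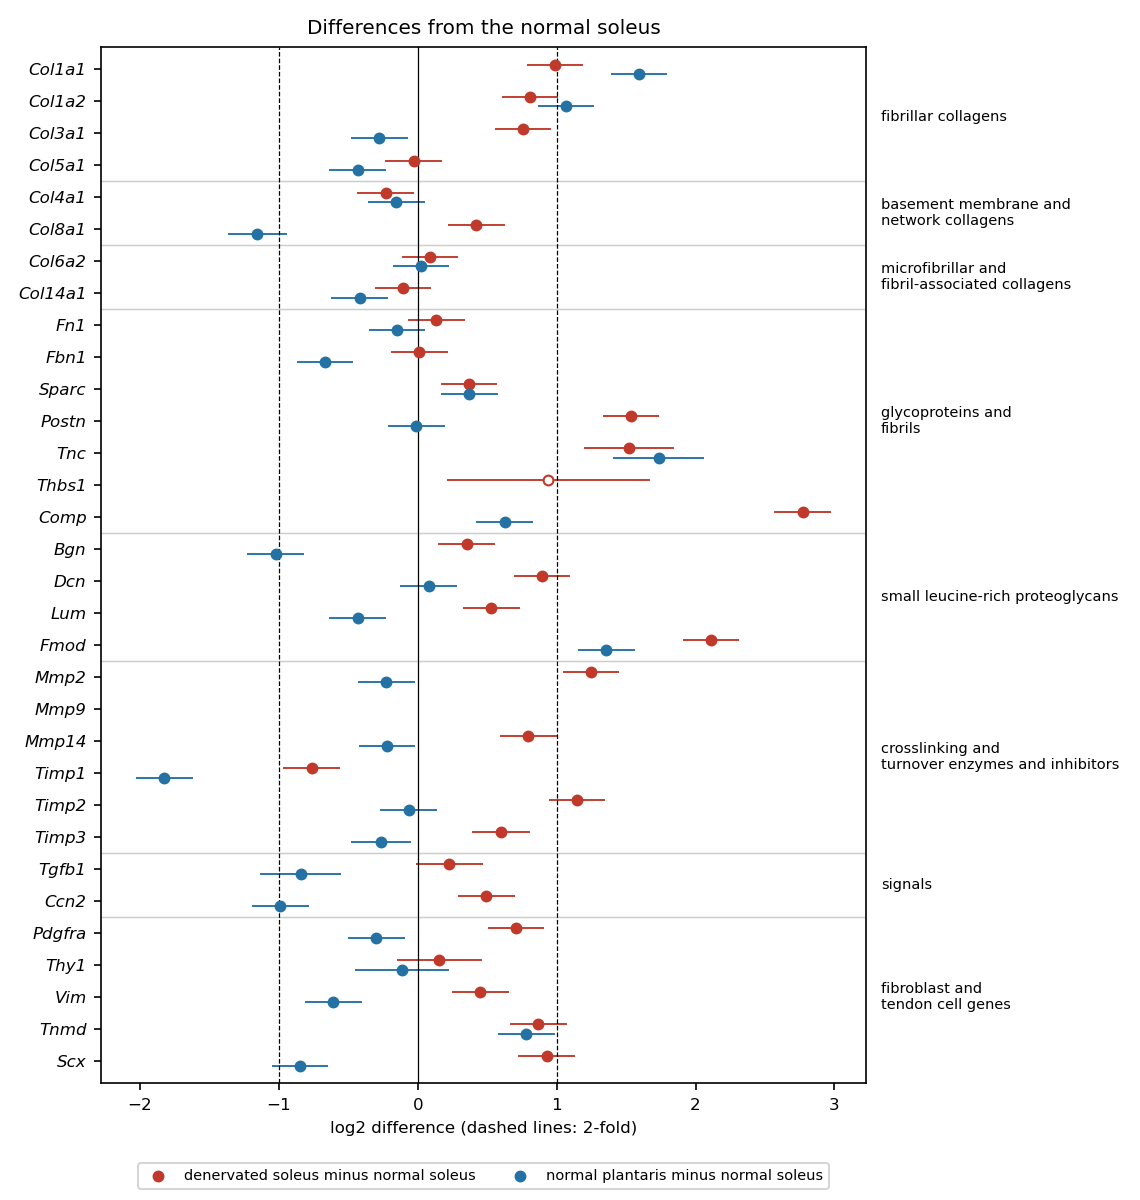
Log2 difference from the normal soleus (horizontal axis) for each member, red for the denervated soleus and blue for the normal plantaris. Bars give the scanner software's error and dashed lines mark 2-fold. The open circle is Thbs1, whose normal soleus signal was not well above background. Both colours share the normal soleus array. Comp and Fmod stand farthest to the right among the red points, and Timp1 farthest to the left among the blue ones.

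Other genes of the same processes were followed in 5 lists. Their counts stand beside 8.73% of all genes at least 2-fold higher after denervation and 13.4% at least 2-fold lower. Of 33 other structural matrix genes measured, 9 were at least 2-fold higher after denervation and 2 lower (median 0.39). Fbln1, for fibulin 1, stood at -4.76 in normal and -2.21 in denervated soleus (2.56 ± 0.31). Chad, for the cartilage protein chondroadherin, was at 2.12 ± 0.20, and the leucine-rich proteoglycan genes Kera and Ogn at 1.84 ± 0.21 and 1.82 ± 0.20. Of 23 genes for collagen processing and crosslinking, 3 (13.0%) were higher and 0 lower (median 0.48, or 0.24 with normexp background, which leaves 1 higher). The lysyl oxidase relative Loxl4 was at 1.34 ± 0.32 and the transglutaminase Tgm2 at 1.12 ± 0.20, P4ha1 for a collagen prolyl hydroxylase at 0.89 ± 0.23 and the procollagen protease Bmp1 at 0.75 ± 0.20.

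The list for the TGF-beta pathway had the highest median of the 5 lists, 0.82, with 8 of 21 higher and 0 lower. Of the 21, 6 lay below 0. The list takes in genes of the connective tissue growth factor family, Ccn4 and Ccn5 among them. The median was 0.39 with normexp background and 1.06 with the authors' deposited values. Ccn5, of the connective tissue growth factor family, was higher by 2.14 ± 0.21, Ltbp1, for a protein that stores latent TGF-beta in the matrix, by 2.02 ± 0.23, Ccn4 by 1.77 ± 0.22 and the ligand Tgfb3 by 1.62 ± 0.20. Tgfb1 and Ccn2, given above, are of the same pathway and were within 2-fold. Other proteases and inhibitors split, with 8 of 23 higher and 4 lower. Among genes well above background on both arrays 4 were higher, and the list's median of 0.40 became -0.00; with normexp background 3 were higher and 2 lower. Adamts9, for a secreted protease that cuts proteoglycans, stood at 1.41 ± 0.21. Serping1, for a complement inhibitor, was at 3.72 in normal and 4.83 in denervated soleus, and the membrane protease gene Mmp15 at 5.89 and 4.39. Of 19 matrix receptors 2 (10.5%) were higher and 2 (10.5%) lower (median 0.20), near the shares of all genes (8.73% and 13.4%). Ddr2, the fibrillar collagen receptor of fibroblasts, stood at 2.18 ± 0.20 and the collagen uptake receptor Mrc2 at 1.23 ± 0.23, against -1.39 ± 0.20 for Cd36 and -1.35 ± 0.20 for Itgb6.

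Markers of other cells moved on the same array, where 8.73% of all genes were at least 2-fold higher and 13.4% lower. Fibroblast and tendon markers outside the members had a median of 0.44, with 2 of 14 higher (4 under quantile normalization and with the authors' deposited values) and 0 lower, Cilp2 at 2.05 ± 0.24, S100a4 at 1.62 ± 0.20, Egr1, for a transcription factor active in tendon cells, at -0.93 ± 0.20 and Fap at 0.84 ± 0.21. Their summed signal, in multiples of the 75th percentile, was 116 in normal soleus, 198 in denervated soleus and 90.4 in plantaris. Gsn, at log2 levels of 5.97, 6.73 and 5.57 in the same order, made the largest part of each sum. Twist2 was not well above background on any array. Fat cell markers were higher in 5 of 8 (median 2.05), with Adipoq at 3.65 ± 0.20 and summed signals of 23.99, 77.4 and 14.2. Cfd, at log2 levels of 3.23, 5.63 and 2.97, made the largest part of each of these sums. Cidea, at 3.01, 3.05 and -0.31, was level after denervation and low in plantaris. Lep was not well above background on any array. For 15 macrophage markers, all well above background on each array, 0 passed 2-fold (median 0.39; sums of 65.5, 72.7 and 43.8).

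Markers of vessels and fibres were mostly lower. Of 10 endothelial markers 3 were lower (median -0.48, sums of 14.9, 8.67 and 12.2). Of 12 smooth muscle and pericyte markers 2 were lower (16.7%, near the 13.4% of all genes), with a median of -0.72 and sums of 111, 54.1 and 115. They were Des and, as a bound, Cnn1, which was not well above background on the denervated array. Muscle fibre markers had a median of -1.20, 6 of 11 lower and 2 higher. Their summed signals were 2473 in normal soleus, 1302 in denervated soleus and 3597 in plantaris. The muscle actin Acta1 had the lowest value, -2.44 ± 0.20, but the largest difference in this list was a rise. The list holds slow and fast forms of myosin and troponin, and their part in the median and the sums was not tested. Des is in both of the last lists, and the smooth muscle and pericyte sums without it were 29.6, 18.9 and 21.7. Schwann cell markers were higher in 4 and lower in 4 of 11 (sums of 8.83, 11.7 and 10.2), and 4 blood cell markers had a median of 0.45 (sums of 109, 111 and 80.0), Ppbp not being well above background on any array. The part of these cell markers in the differences of the matrix genes was not tested.

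**Figure D3:**
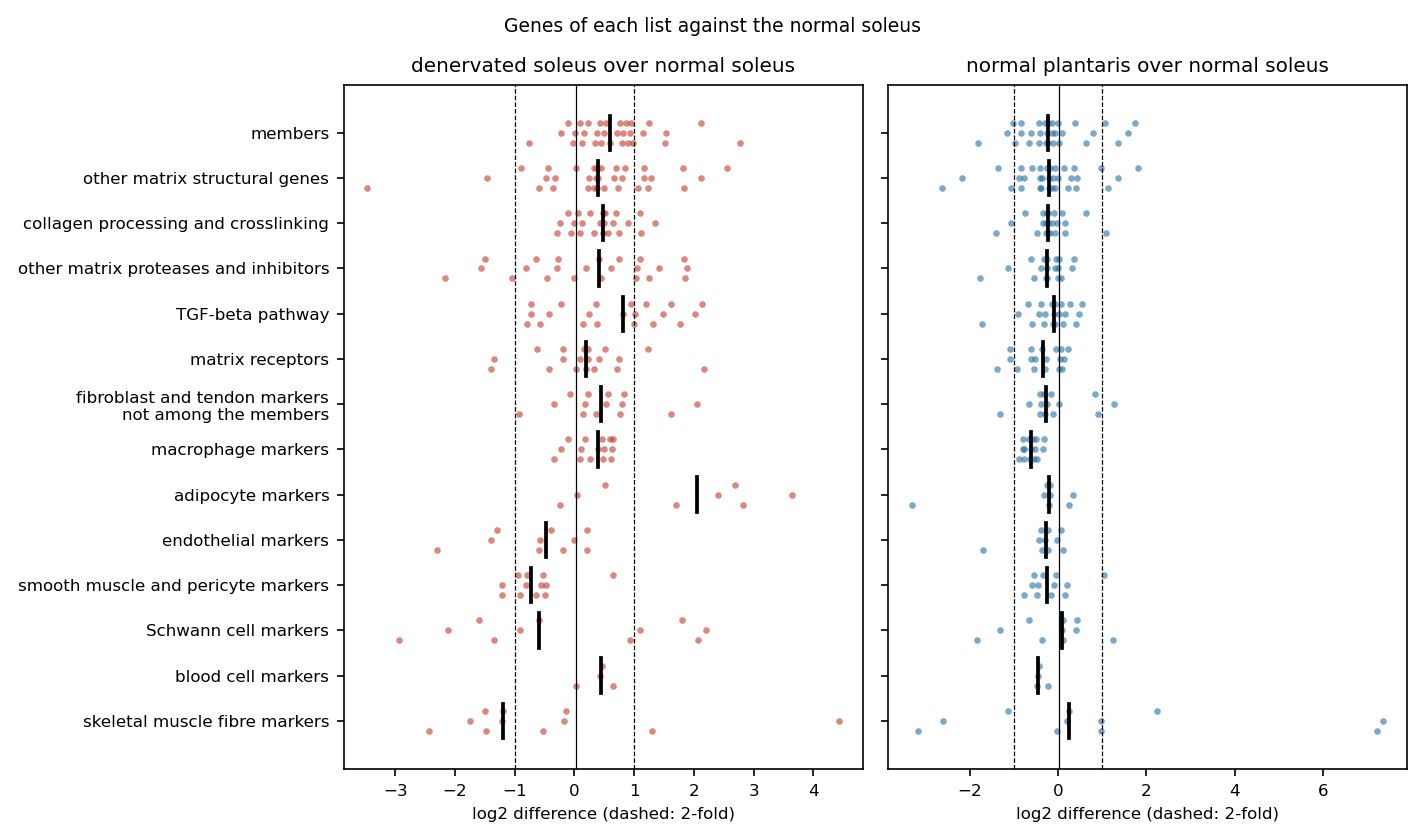
Log2 difference from the normal soleus (horizontal axes) for every measured gene of each list, denervated soleus at left and normal plantaris at right, 1 dot per gene, with a black bar at the list's median, a thin line at the median of all genes and dashed lines at 2-fold. After denervation the members' median is 0.60 and that of the fat cell markers 2.05, while muscle fibre markers lie at -1.20.

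The second comparison set the normal plantaris against the normal soleus, both on 1 slide, and addresses fast against slow muscle. The type I collagen chains, Fmod and Tnc were higher in the fast muscle, while Timp1 and Col8a1 were lower, and Bgn was lower on its brighter probe only. Of the 30 members measured, 4 (13.3%) were at least 2-fold higher, where 5.71% of all 11015 genes were, and 3 at least 2-fold lower (2 with the mean over probes, which leaves Bgn at -0.36), where 6.11% of all genes were (11.8% either way). The members' median was -0.22 against 0.02 for all genes, and 21 of the 30 lay below 0, where 52.1% of all genes lay above it.

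Tnc was higher in plantaris by 1.73 ± 0.33, but by 0.87 with normexp background. Col1a1 was 3.01-fold higher (1.59 ± 0.20, and 1.36 on the second probe) and Col1a2 2.10-fold (1.07 ± 0.20, or 0.76 under quantile normalization and 0.96 with the authors' deposited values). Fmod was 2.56-fold higher (1.36 ± 0.20). The tendon gene Tnmd stood at 0.78 ± 0.20 and Comp at 0.63 ± 0.20, beyond their error but within 2-fold. Not all tendon genes leaned this way, since Scx was at -0.85 ± 0.20 on 1 probe and -0.78 on another.

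Timp1 was 3.54-fold lower in plantaris (-1.82 ± 0.20), at 0.34 against 2.16 in the soleus, and stayed between -1.93 and -1.76 over the alternatives. Col8a1 was at -1.15 ± 0.21 (-0.81 with normexp background). Bgn was at -1.02 ± 0.20 on its bright probe and 0.31 on a dim one, so its direction rests on the probe. Both signals were lower, Ccn2 at -0.99 ± 0.20 and Tgfb1 at -0.84 ± 0.29, or -0.24 with normexp background. Fbn1 (-0.67 ± 0.20), Vim (-0.61 ± 0.20), Col5a1 (-0.43 ± 0.20), Lum (-0.43 ± 0.21), Col14a1 (-0.42 ± 0.20), Pdgfra (-0.30 ± 0.20), Col3a1 (-0.28 ± 0.20), Timp3 (-0.26 ± 0.22), Mmp2 (-0.23 ± 0.20) and Mmp14 (-0.22 ± 0.20) were below 0 beyond their error and within 2-fold. Sparc was at 0.37 ± 0.20. Col4a1, Col6a2, Fn1, Postn, Dcn, Timp2 and Thy1 were within their error of 0.

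Between the normal muscles the wider lists had medians below 0. Of all genes 5.71% were at least 2-fold higher in plantaris and 6.11% at least 2-fold lower. Of 33 other structural matrix genes 3 were higher and 4 lower in plantaris (median -0.21). Chad and Kera were higher by 1.81 ± 0.20 and 1.36 ± 0.21, and Spp1, for osteopontin, and Aspn, for asporin, stood at -2.65 ± 0.26 and -1.37 ± 0.21. Of 22 collagen processing genes 1 was higher and 2 lower (median -0.23), with P4ha1 at 1.08 ± 0.23, P3h2 at -1.42 ± 0.29 and Loxl1 at -1.08 ± 0.21, and with normexp background none of them passed 2-fold. Of 21 TGF-beta pathway genes 1 was lower, Ltbp2 at -1.73 ± 0.24 (median -0.10), and with normexp background 0 were. Of 18 other proteases and inhibitors 2 were lower (median -0.25) and of 18 matrix receptors 3 (median -0.34), among them Sdc4, for a cell surface proteoglycan, at -1.38 ± 0.20. Fibroblast and tendon markers outside the members had 1 of 14 higher, Cilp2 (1.26 ± 0.24), and 1 lower, Prg4, for lubricin (-1.32 ± 0.20). All 15 macrophage markers lay below 0 (median -0.62), none past 2-fold, and their part in the lower members was not tested.

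Set side by side, the 3 arrays gave an order for each of the 30 members measured on all of them. The denervated soleus was highest for 22, beyond the error for 16, and the plantaris lowest for 20, beyond the error for 16. These orders were not counted over all genes, so no share of all genes can be set beside them. Of all genes 51.2% lay above 0 in denervated over normal soleus and 50.3% in denervated soleus over plantaris. For plantaris over normal soleus the share was 52.1%. For 17 members the order ran from denervated soleus over normal soleus to plantaris, and for 11 of them both steps were beyond the error: Col3a1, Col8a1, Bgn, Lum, Mmp2, Mmp14, Timp3, Ccn2, Pdgfra, Vim and Scx. Bgn had this order on its brighter probe only. Its dimmer probe stood at -0.14 in normal soleus, -0.17 in denervated soleus and 0.17 in plantaris. The plantaris was highest for 4 members, beyond the error for Col1a1 and Col1a2, and level with the denervated soleus for Sparc and Tnc. On the second, dimmer Col1a1 probe the denervated soleus (4.62) and the plantaris (4.55) were level within the error. The normal soleus was highest beyond the error for Timp1 alone of the 30, and lowest beyond it for 7: Col1a1, Col1a2, Sparc, Tnc, Comp, Fmod and Tnmd. For Col4a1, Col6a2, Fn1 and Thy1 no neighbouring arrays differed by more than the error.

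The denervated soleus and the plantaris were furthest apart. Of 31 members 15 (48.4%) were at least 2-fold higher in the denervated soleus, where 12% of all 11371 genes were, and 0 at least 2-fold lower, where 16.7% of all genes were (28.7% either way). The median was 0.96 against 0.01 for all genes, and the count was 9 with centring on the array median. Of all genes past 2-fold 41.8% were higher, or 66.9% with the authors' deposited values and 27.8% with normexp background. Comp differed most, by 2.14 ± 0.20, followed by Scx (1.78 ± 0.20), Col8a1 (1.58 ± 0.21), Postn (1.55 ± 0.20), Ccn2 (1.48 ± 0.20) and Mmp2 (1.47 ± 0.20). Col1a1 lay on the other side at -0.60 ± 0.20, but at 0.07 on its second probe and at 0.17 under quantile normalization. Col1a2 was at -0.26 ± 0.20, or 0.73 under quantile normalization. This comparison shares an array with each of the others and is no separate evidence.

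**Figure D4:**
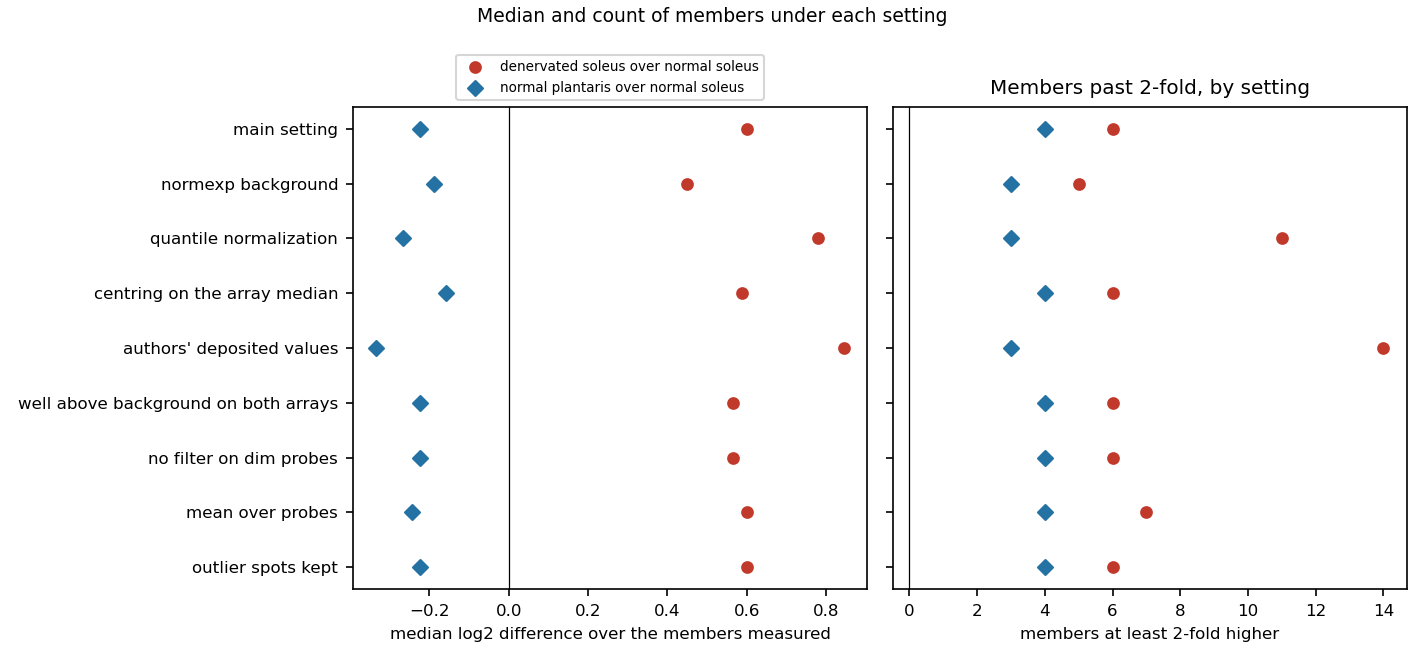
Median log2 difference over the measured members (left) and number of members at least 2-fold higher (right) under the main setting and each of 8 alternatives, red circles for denervated over normal soleus and blue diamonds for plantaris over normal soleus. The red medians run from 0.45 to 0.84 and the blue ones from -0.33 to -0.16, while the red counts run from 5 to 14.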

How the data were processed

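RNA of each muscle was labelled with Cy3 and hybridised to 1 one-colour Agilent array. Per the file headers, Agilent Feature Extraction 10.10.1.1 made the processed signal, a linear intensity corrected for background and spatial trend, with no scaling between arrays, and also gave its error, raw spot and background intensities, and spot flags of 0 or 1 (another kind of value). The authors' deposited value table, also an intensity, is the processed signal multiplied by a constant for each array: 1.60 (normal soleus), 1.41 (denervated) and 1.80 (plantaris). The sources used here do not say how these were set. The array's genome build is not stated, so no gene positions are given beyond the RefSeq stretches.

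Log2 processed signals were centred on the 75th percentile of 58717 non-control spots, spots with an outlier flag (467 to 569 per array) were left out, none was saturated, and repeat spots were averaged. Well above background means that the software's flag says so for at least 50% of a probe's spots. The probe with the highest mean over the 3 arrays stood for a gene. A gene entered a comparison if well above background on at least 1 of its arrays. Where it was so on 1 only, the fold was taken against the dim signal or the lowest well-above signal on that array, whichever is higher. Such a fold is called a bound, but where the dim signal was the higher it is the plain difference. Differences past 1 log2 unit (2-fold) were counted, which is a rule of size, and no p-value is given. The calculation was tested on simulated data. Alternatives used limma 3.58.1 for normexp (offset 50, on median signals since the files used here carry no mean signal) and quantile normalization. All 40 members are named whatever their values. Of every other list up to 4 genes per comparison are named, those with the largest differences on both arrays. Acta1, Myh7 and Adipoq are named by that rule but do not stand for their lists. In the muscle fibre list the largest differences from the normal soleus, after denervation and in plantaris, were rises. The members and lists were chosen with earlier results of these data known. A gene that this rule names is not reported here.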

Additional observations from a re-analysis of the deposited data

How the results depend on the processing

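A set of 8 alternatives were was tried, and they are named in the plot of medians and counts by setting. No paired analysis was possible because each group has 1 array, and for the same reason no array could be left out. The members' median after denervation was 0.60. It was 0.84 with the authors' deposited values, the only shift larger than the typical scanner error of a single member. That error is not an error of the median. The median was 0.78 under quantile normalization and 0.45 with normexp background. The members' count past 2-fold went from 6 to 11 under quantile normalization and 14 with the authors' values. For denervated soleus over plantaris the median of 0.96 was 1.32 with the authors' values, and the count of 15 was 9 with centring on the array median. The authors' values shift all genes by their factors, to a median of 0.27 after denervation, normexp background to -0.09 and no filter on dim probes to -0.11, against 0.03 in the main setting. Over 732 values of single members under an alternative, 627 lay within the technical error of the main value, 29 changed sign, all of them from within 2-fold, and 37 crossed the 2-fold line. Dim members (Tnc, Tgfb1, Thy1, Thbs1) are limited by signal over background, and 1 array per group limits every value.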

Other observations

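Genes known from tendon and cartilage matrix outside the 40 members did not share an order of the arrays; those given here were picked after their values were seen. Chad, Kera and Cilp2 had the normal soleus lowest, as Comp and Fmod did. Chad, for chondroadherin, stood at 0.36 in normal soleus, 2.48 in denervated soleus and 2.17 in plantaris. Kera, for keratocan, a relative of fibromodulin and lumican, was at -2.26, -0.42 and -0.90, and Cilp2, for a cartilage intermediate layer protein, at -3.79, -1.74 and -2.54. Others differed. Col9a1, for a cartilage collagen, was at -2.25, -3.71 and -2.03, with the denervated soleus lowest, and Prg4, for lubricin, at 0.32, -0.02 and -0.999, with the normal soleus highest. Cilp, the relative of Cilp2, was at -1.21, -0.05 and -2.27 and Aspn, for asporin, at -0.46, -0.07 and -1.83, both with the plantaris lowest. Both differences from the normal soleus use the same array, so they are not independent of each other.

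For some genes the denervated array stood apart from both normal muscles. Ddr2, the collagen receptor, was at -0.46 in normal soleus and -0.44 in plantaris against 1.72 after denervation. Tgfb3 was at -0.72 and -0.56 against 0.90, and Ccn5 at -2.83 and -3.52 against -0.70. Spp1, for osteopontin, had its low value in plantaris instead, at -4.31 against -1.66 in normal and -1.16 in denervated soleus.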
